A study of Mus musculus with 3 samples.

Results

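The genes described here are 10 that Wnt/beta-catenin signalling switches on and that then act back on the pathway: Axin2, Nkd1, Nkd2, Rnf43, Znrf3, Apcdd1, Lgr5, Sp5, Notum and Kremen1. They were chosen by name, and each had 1 row among the 43280 rows of every count table. The study sequenced RNA of mouse embryos at E15.5, from primary cells of skeletal mesenchyme, called calvarial in the series' design: the tissue of the skull vault. The 3 genotypes at Ctnnb1, the gene of beta-catenin, had 1 library each. The control was beta-catenin fx/fx, homozygous for the floxed allele, with no Cre. The deletion library (bcat-Dermo1-cKO) carried the same 2 floxed alleles and Dermo1-Cre, a recombinase made from the Twist2 (Dermo1) locus in mesenchymal progenitors. The dTF library (bcat-dTF-Dermo1-cKO) was fx/dm with Dermo1-Cre. What dm stands for is not said in the labels. In mouse genetics an allele of that name encodes a beta-catenin that still joins cadherin complexes but does not drive transcription. No fx/dm library without Cre was analysed here, so the effect of carrying dm and that of losing the floxed copy cannot be told apart. The labels do not say how many embryos went into a library. With 1 library per genotype, each difference below is between libraries, and no genotype was tested.

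In the canonical Wnt pathway a ligand at a Frizzled receptor and an LRP co-receptor stops the destruction complex from breaking down beta-catenin, which then enters the nucleus and acts through TCF/LEF factors. Most of the 10 genes are known targets of that output that damp the signal at successive steps, and Lgr5 is a target that works the other way, since as a receptor for R-spondins it helps to keep Frizzled at the membrane. In skull mesenchyme, Wnt signalling through beta-catenin is known to direct progenitors to the osteoblast fate and away from cartilage, and in the skin above it the same signal acts in both dermis and epidermis.

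Promoter sequence was at hand from RefSeq (GRCm38.p6) for 5 of the 10 genes, at 6 start sites: Axin2, Nkd1, Nkd2, Rnf43 and Sp5. The 250 bases before each start were searched on both strands for the TCF/LEF core in any of 4 forms: the form CTTTGAA, the form CTTTGAT, the form CTTTGTA and the form CTTTGTT. Of all 32851 starts in that table, 14.8% held at least 1 such match and 1.43% held 2 or more. Sp5 held 2 matches that do not overlap, CTTTGTT on the opposite strand beginning 222 bases before the start and CTTTGAT on the gene's own strand beginning 104 bases before it, and the other 5 starts held 0. The sequences of 3 of these genes are shown 5′ to 3′ on the strand of the gene, Sp5 for its matches, Axin2 as the most widely used readout of the pathway, and Rnf43 as the member that differed most from the control. Capitals mark the matches, and a match is only a run of letters, not a shown binding site. The Sp5 stretch is chr2:70474673-70474922 (plus strand), the Axin2 stretch chr11:108920099-108920348 (plus strand) and the Rnf43 stretch, before the more downstream of its starts and within an intron of longer Rnf43 transcripts, chr11:87699647-87699896 (plus strand).
Sp5: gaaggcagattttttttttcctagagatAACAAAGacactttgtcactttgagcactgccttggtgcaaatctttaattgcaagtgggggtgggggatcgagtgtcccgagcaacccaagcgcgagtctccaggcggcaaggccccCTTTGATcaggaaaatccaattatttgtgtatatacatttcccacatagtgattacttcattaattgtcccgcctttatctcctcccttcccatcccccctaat
Axin2: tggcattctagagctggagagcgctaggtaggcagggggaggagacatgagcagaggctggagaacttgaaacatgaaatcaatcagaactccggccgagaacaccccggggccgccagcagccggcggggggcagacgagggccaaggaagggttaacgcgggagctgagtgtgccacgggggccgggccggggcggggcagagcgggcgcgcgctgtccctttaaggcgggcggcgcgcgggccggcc
Rnf43: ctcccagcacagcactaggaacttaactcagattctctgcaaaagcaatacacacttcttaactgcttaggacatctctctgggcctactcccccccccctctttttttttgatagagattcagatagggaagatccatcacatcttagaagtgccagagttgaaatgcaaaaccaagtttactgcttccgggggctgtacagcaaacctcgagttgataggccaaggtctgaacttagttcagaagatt

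Libraries held between 2678457 and 3634819 counts, so a gene of this group rests on at most 762 counts and in places on fewer than 10. In the control, deletion and dTF libraries the targeted gene Ctnnb1 had 3669, 2106 and 1236 counts, or 1026, 745 and 442 CPM (the share of a gene in the scaled library, with the whole library set to 1e6), so it was lower with Cre, except that under the stroma scaling described below the dTF library stood at 1.98 times the control. Counts over the whole gene do not show how much of the floxed part was lost. Twist2, the locus of the Cre, had 21, 80 and 35 counts. Sex-linked transcripts differed with genotype: Xist had 1233, 0 and 2 counts, and 4 Y-linked genes summed to 0, 362 and 444. Sex and genotype therefore cannot be told apart in either comparison with the control. The cell types present differed as well. A list of 17 epidermis markers summed to 177 CPM in the control, where Dsg3 and Grhl3 were at 0, to 23489 CPM in the deletion library and to 14762 CPM in the dTF library, with 0 markers at 0 in either. The 12 osteoblast markers summed to 185843, 39448 and 8323 CPM in the same order, and the 10 dermis markers to 12407, 10976 and 4231 CPM. Every osteoblast and dermis marker was detected in each library, and both Cre-carrying libraries also held RNA of epidermis markers. In bulk RNA, fewer cells of a type and less RNA per cell cannot be told apart.

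**Figure D1:**
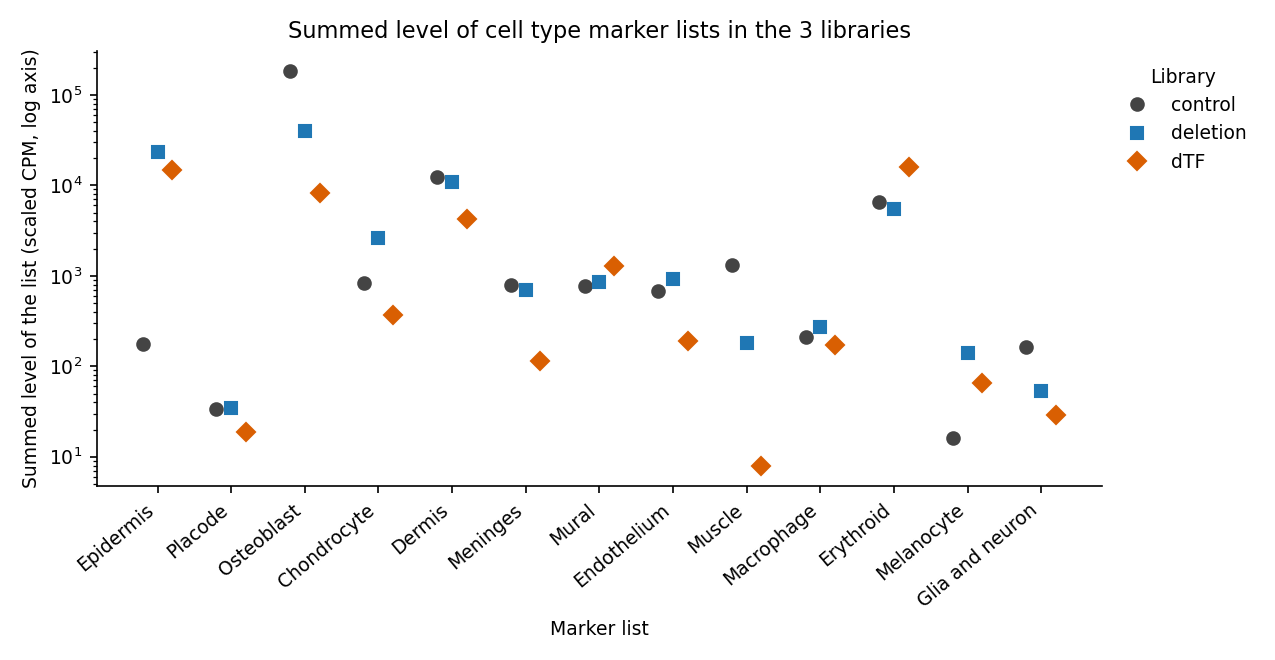
Summed level of each cell type marker list (scaled CPM, log axis) in the control (circles), deletion (squares) and dTF (diamonds) libraries; each point is 1 library, with no error bar. The epidermis list stands at 177 CPM in the control against 23489 and 14762 CPM in the Cre-carrying libraries, and the osteoblast list descends from 185843 to 8323 CPM.

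Because of that difference in makeup, 2 scalings are given. The main one is edgeR's TMM, which assumes that most genes do not differ. The other, called stroma scaling, is the median ratio over 32 marker genes of endothelium, vessel wall (mural), dermis and meninges, and so expresses a gene relative to other stromal RNA. Going from TMM to stroma scaling moved the median log2 difference of all measured genes by -0.15 for the deletion library against the control, by 2.16 for the dTF library against the control and by 2.31 for the dTF library against the deletion library. Directions in the dTF library are therefore given under both. Shares within a library, given further down, do not depend on scaling.

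The 10 genes spanned a wide range of levels. Kremen1, a receptor for the secreted inhibitor Dkk1, had the most counts in each library, and Sp5 and Notum had the lowest means. Of the 10, 8 were measured, meaning a mean of at least 5 CPM over the 3 libraries, and Sp5 (mean 2.94 CPM) and Notum (2.58 CPM) fell short. Rnf43 reached that floor only through the Cre-carrying libraries, since it stood at 3.64 CPM in the control, so it had to differ to be counted. Lgr5 (mean 5.91 CPM) likewise reached it only through the deletion library, so its place among the members lower in the dTF library than in the deletion library is partly set by the floor. With a floor of 20 CPM, which leaves Lgr5 out, 2 members were lower there. Per kilobase of exon, the order in the control was Kremen1 (19.1 CPM per kb), Nkd1 (10.8), Axin2 (6.35), Nkd2 (5.22), Apcdd1 (4.99), Znrf3 (2.73), Notum (1.74), Sp5 (1.33), Rnf43 (0.555) and Lgr5 (0.518). Counting intervals of neighbours in that order did not overlap between Kremen1 and Nkd1, Nkd1 and Axin2, and Apcdd1 and Znrf3, and overlapped between all other neighbours. In the deletion library the genes after Kremen1 (20.2 CPM per kb) were Apcdd1 (10.1), Axin2 (9.19) and Nkd1 (9.16), whose intervals overlapped from each to the next. In the dTF library Kremen1 stood at 35.3 CPM per kb and Rnf43, ninth in the control, came next at 5.94 CPM per kb, with an interval that overlapped that of Nkd1 (4.55).

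**Figure D2:**
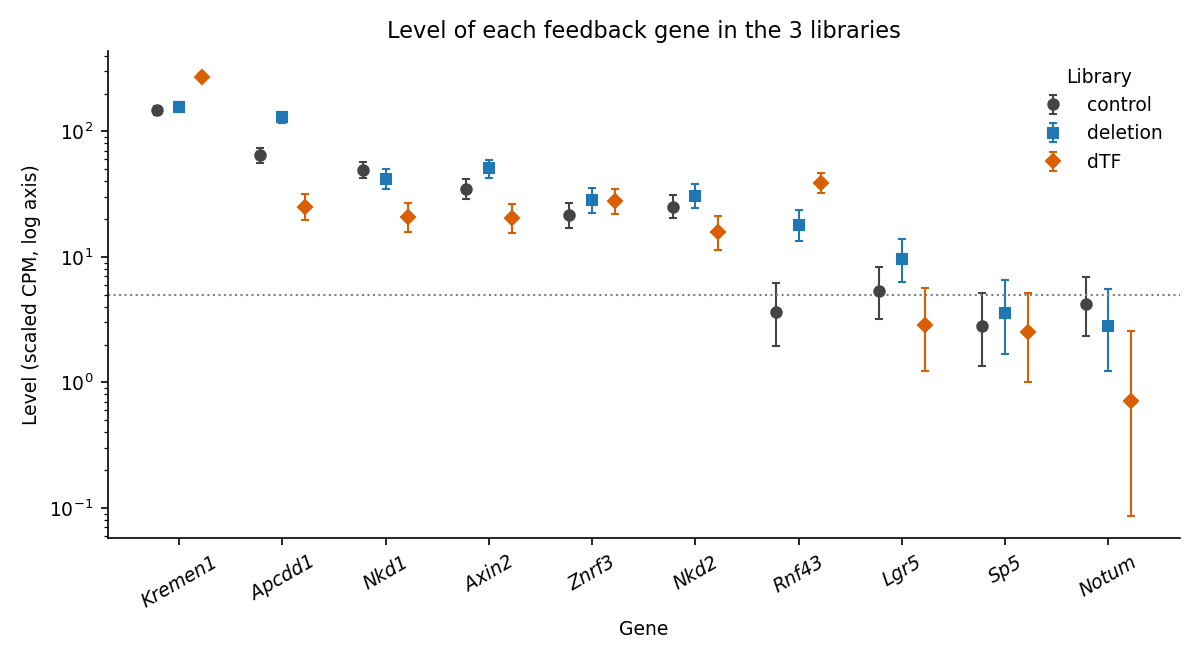
Level of each of the 10 genes (scaled CPM, log axis) in the control (circles), deletion (squares) and dTF (diamonds) libraries; points are single libraries, bars are exact Poisson 95% intervals of counting error, and the dotted line is the floor of 5 CPM. Rnf43 climbs from 3.64 to 18.0 and 38.9 CPM, while Apcdd1 peaks in the deletion library at 129.8 CPM and is lowest in the dTF library at 25.0 CPM.

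The comparison of the deletion library with the control asks how the feedback genes stood in floxed mesenchyme that carried Dermo1-Cre, a library in which Ctnnb1 RNA was 1.38-fold lower and so missed the 2-fold rule. They were not lower as a group in the deletion library. Of 8 measured members, 2 were at least 2-fold higher (Rnf43 and Apcdd1) and 0 at least 2-fold lower, against 9.66% and 6.78% of all 12127 measured genes. Their median log2 difference was 0.45, against 0.06 over all measured genes, and the members ran from -0.23 (Nkd1) to 2.12 (Rnf43). Counting intervals of the ratio lay above 1 for Axin2, Rnf43 and Apcdd1 and below 1 for 0 members. Nkd1, the member with the lowest difference, had a ratio interval that included 1. In this comparison 16 of 17 epidermis, 5 of 7 chondrocyte and 3 of 4 measured melanocyte markers were at least 2-fold higher, with 0 lower in each list. Lower by that size were 12 of 12 osteoblast and 7 of 7 measured muscle markers, and of 10 dermis markers 1 was higher and 0 lower. The part of these cell types in the 3 higher members was not tested.

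The comparison of the dTF library with the control asks the same of fx/dm mesenchyme that carried Dermo1-Cre. Here the members split. Under TMM scaling Nkd1 and Apcdd1 were at least 2-fold lower and Rnf43 at least 2-fold higher, so 2 of 8 were lower and 1 of 8 higher, against 20.9% and 19.5% of all measured genes, shares close to the members' own. Intervals lay below 1 for Axin2, Nkd1, Nkd2 and Apcdd1 and above 1 for Rnf43 and Kremen1. The members' median was -0.71, against 0.06 over all measured genes, and became 1.45 under stroma scaling, which put 6 of 8 past 2-fold on the higher side and 0 on the lower. That scaling called 9829 of all measured genes higher and 501 lower, with a median of 2.22. Totals without the 20 most abundant genes gave 1 member higher and 5 lower, and 1602 of all measured genes higher and 3395 lower. Beside these values, 17 of 17 epidermis markers were at least 2-fold higher in the dTF library, and 7 of 10 dermis markers were lower and 1 higher; their part was not tested.

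Between the Cre-carrying libraries, the dTF library was lower than the deletion library by at least 2-fold for Axin2, Apcdd1 and Lgr5 under TMM scaling and higher for Rnf43. That is 3 of 8 lower and 1 of 8 higher, where 20.5% and 14.5% of all measured genes were called. Nkd1 and Nkd2, at 2.01-fold and 1.96-fold lower as plain ratios, missed the size rule on the log2 scale, with differences of -0.99 and -0.94. The median of the members was -0.96, against 0.01 over all measured genes, and under stroma scaling it was 1.34, against 2.32, with 6 of 8 members higher and 0 lower, where 10101 of all 12127 measured genes were higher and 419 lower. Library totals, and totals without the 20 most abundant genes, each gave 0 members higher and 5 lower. Over all measured genes they gave 1437 higher and 2820 lower, and 1122 higher and 3276 lower, in that order. In this comparison, under TMM scaling, 8 of 10 dermis markers were at least 2-fold lower and 1 higher. Of 8 mural markers 6 were lower and 2 higher, and their summed level was higher in the dTF library, at 1286 against 850 CPM. Also lower by that size were 6 of 7 chondrocyte, 7 of 8 endothelium and 5 of 6 meninges markers. The same held for 9 of 12 osteoblast and 7 of 7 measured muscle markers, with 0 higher in each of these 5 lists. Of 7 measured erythroid markers 6 were higher. The part of these cell types in the members' values was not tested. Comparisons with the control share that library, so their values are set side by side and not correlated.

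**Figure D3:**
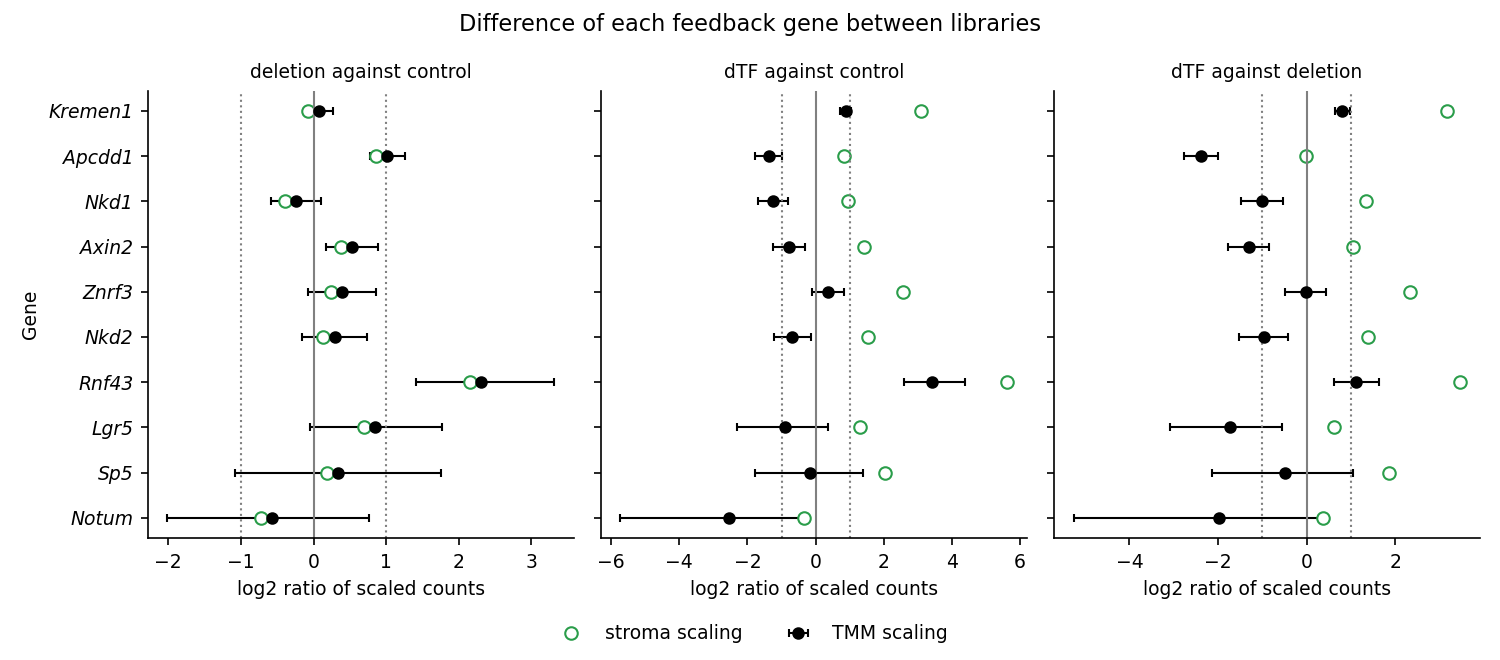
Log2 ratio of scaled counts for each of the 10 genes in the 3 comparisons, without a prior count, so that Notum and Lgr5 lie farther from 0 than their log2 differences in the text; filled points and 95% counting intervals are under TMM scaling, open points under stroma scaling, and dotted lines mark 2-fold. Stroma scaling shifts the points of the dTF library to the right, while in the deletion library against the control filled and open points nearly coincide.

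**Figure D4:**
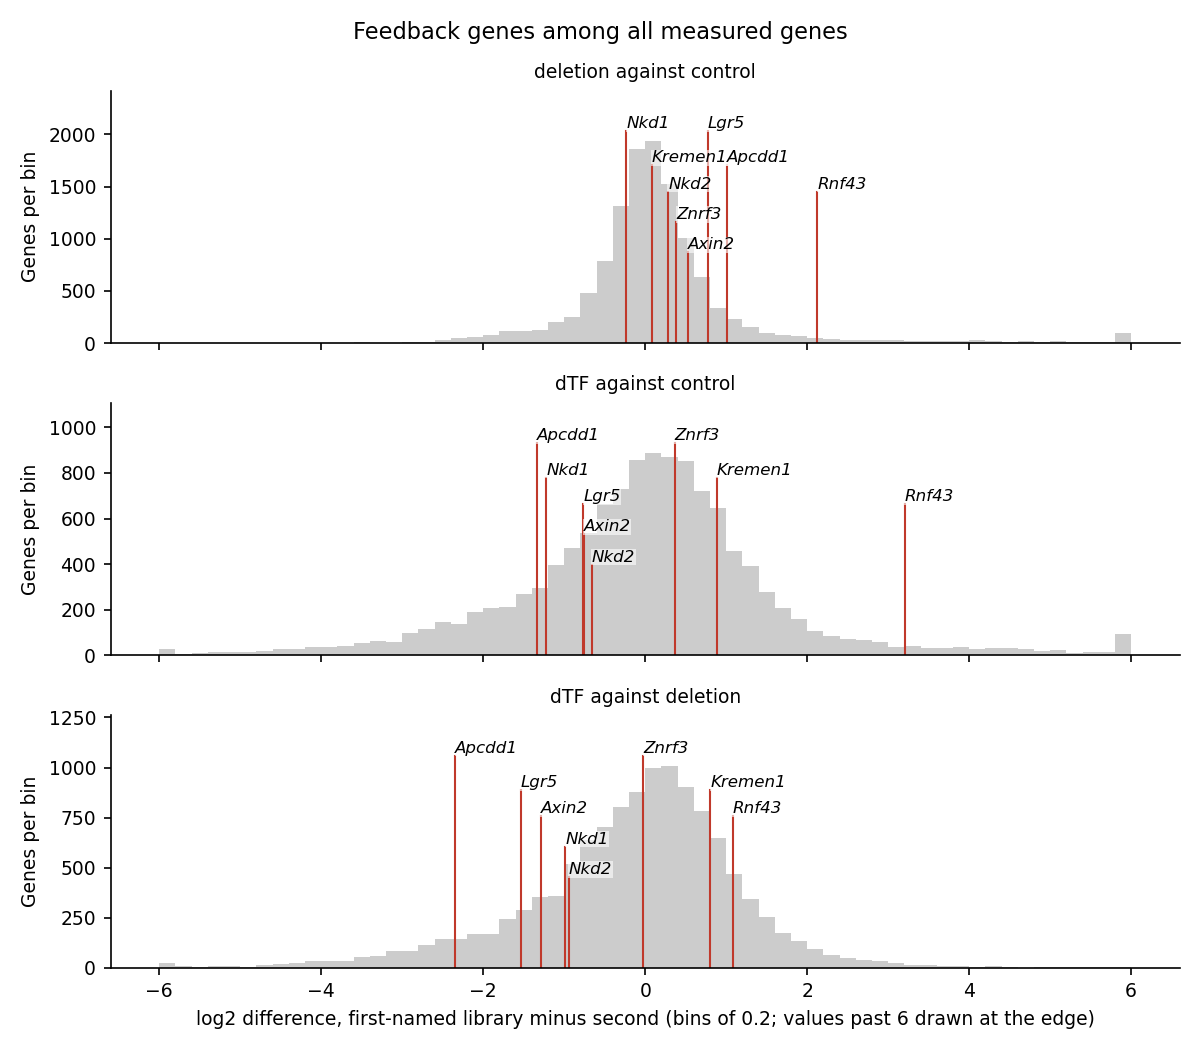
Histogram of the log2 difference of all 12127 measured genes in each comparison (bins of 0.2), with a line at each of the 8 measured members. Rnf43 lies in the upper tail of both comparisons with the control at 2.12 and 3.21, and in those 2 comparisons the remaining members lie between -1.34 and 1.01. The place of Rnf43, which was below the floor in the control, is partly set by that floor. In the dTF library against the deletion library the members run from -2.35 (Apcdd1) to 1.08 (Rnf43).

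Among the members that act inside the cell, Axin2 (chromosome 11, 108920349 to 108950783, plus strand) encodes a scaffold of the destruction complex and is the usual readout of canonical Wnt signalling. It had 125 counts in the control, 143 in the deletion library and 57 in the dTF library, or 35.0, 50.6 and 20.4 CPM. The deletion library was the highest of the 3 libraries and the dTF library the lowest, and the 3 counting intervals did not overlap. The ratio to the control was 1.45 in the deletion library (95% interval 1.13 to 1.85) and 0.583 in the dTF library (0.418 to 0.803), and the ratio of dTF to deletion was 0.403 (0.291 to 0.551). Under stroma scaling the deletion library stayed above the control, at a ratio of 1.30, whereas the dTF library moved to 2.68 times the control and 2.06 times the deletion library.

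Nkd1 and Nkd2 encode the Naked cuticle proteins, which bind Dishevelled and blunt the signal below the receptor. Nkd1 had 176, 118 and 58 counts in the control, deletion and dTF libraries, or 49.2, 41.7 and 20.7 CPM. Nkd2 had 90, 87 and 44 counts, or 25.2, 30.8 and 15.7 CPM. For both genes the control and the deletion library had overlapping intervals, and the dTF library was the lowest; its interval lay clear of both for Nkd1 and overlapped that of the control for Nkd2. Nkd1 was 2.38-fold lower in the dTF library than in the control (1.76 to 3.25), and Nkd2 1.60-fold lower (1.11 to 2.35). In the deletion library the ratio to the control was 0.848 for Nkd1 (0.666 to 1.08) and 1.22 for Nkd2 (0.900 to 1.66), so neither direction was resolved at this depth. Under stroma scaling the log2 differences of the dTF library from the control turned to 0.94 for Nkd1 and 1.49 for Nkd2.

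At the membrane, Rnf43 and Znrf3 encode sister ubiquitin ligases that remove Frizzled and LRP receptors from the cell surface and are themselves held back by R-spondins. Rnf43 (chromosome 11, 87662722 to 87735539, plus strand) had 13 counts in the control, 51 in the deletion library and 109 in the dTF library, or 3.64, 18.0 and 38.9 CPM. The 3 intervals did not overlap, and the order was control, deletion, dTF under both scalings. The ratio to the control was 4.96 in the deletion library (2.66 to 9.94) and 10.7 in the dTF library (6.01 to 20.8), and that of dTF to deletion was 2.16 (1.53 to 3.07). Of all measured genes, 95.8% had a lower difference from the control in the deletion library and 96.3% in the dTF library. Because Rnf43 was measured only through the Cre-carrying libraries, these ranks are partly set by the floor. Under stroma scaling the ratios to the control were 4.46 and 49.3.

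Znrf3 had 77, 80 and 78 counts in the control, deletion and dTF libraries, or 21.5, 28.3 and 27.9 CPM, with overlapping intervals in all 3 libraries. Its ratio to the control was 1.31 in the deletion library (0.949 to 1.82) and 1.29 in the dTF library (0.932 to 1.80), and that of dTF to deletion was 0.985 (0.712 to 1.36). The near-equal counts of Znrf3 thus stood beside Rnf43 counts that ran from 13 to 109 in the same libraries. Epidermis markers were higher in both libraries where Rnf43 was higher. Between those libraries, 6 of 17 epidermis markers were at least 2-fold higher and 3 lower in the dTF library (median 0.39, and 2.74 under stroma scaling), while their summed level was lower there. Their part in the Rnf43 result was not tested.

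Kremen1 encodes a receptor that, with Dkk1, takes the co-receptor LRP6 off the membrane. It lies next to Znrf3 on the minus strand of chromosome 11, at 5191552 to 5261558, with 14.8 kb and 0 annotated genes between them, and 5 of the 10 members are on that chromosome. Kremen1 had 527, 440 and 762 counts in the control, deletion and dTF libraries, or 147, 156 and 272 CPM. The control and deletion libraries overlapped, and the dTF library lay above both. The ratio to the control was 1.06 in the deletion library (0.928 to 1.20) and 1.85 in the dTF library (1.65 to 2.07), short of the 2-fold rule under TMM scaling and 8.51 under stroma scaling. Its direction in the deletion library was not settled, with a log2 difference of 0.08 under TMM and -0.07 under stroma scaling.

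Lgr5 encodes an R-spondin receptor and is best known as a marker of Wnt-driven stem cells. It had 19, 27 and 8 counts in the control, deletion and dTF libraries, or 5.32, 9.55 and 2.86 CPM. Intervals of the control overlapped those of both other libraries, while those of deletion and dTF did not overlap. The dTF library was 3.34-fold lower than the deletion library (1.48 to 8.51), and ratios to the control were 1.80 in the deletion library (0.963 to 3.42) and 0.538 in the dTF library (0.204 to 1.29). Under stroma scaling the dTF library stood above the deletion library, at a log2 difference of 0.57.

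Apcdd1 encodes a membrane-bound inhibitor that binds Wnt ligands and LRP5 and is known from dermis and hair follicles. It had 230 counts in the control, 367 in the deletion library and 70 in the dTF library, or 64.3, 129.8 and 25.0 CPM. No intervals overlapped, with the deletion library highest and the dTF library lowest. The deletion library was 2.02-fold above the control (1.71 to 2.39). That value lies just inside the size rule: the log2 difference was 1.01, and 0.97 with DESeq2 size factors. The dTF library was 2.57-fold below the control (1.96 to 3.41) and 5.19-fold below the deletion library (4.01 to 6.80), a lower value than all but 6.56% of measured genes had in that comparison. Under stroma scaling the dTF library was 1.79 times the control and 0.986 times the deletion library, so its place below the control turned and its distance from the deletion library closed. By summed level, marker lists in the same order as Apcdd1 were those of chondrocytes, endothelium, macrophages and hair placodes. Chondrocyte markers summed to 826, 2585 and 373 CPM in the control, deletion and dTF libraries, and endothelium markers to 679, 916 and 190 CPM. Macrophage markers summed to 212.9, 272.4 and 171.5 CPM, and placode markers to 33.3, 34.3 and 18.6 CPM. The placode list rests on 119, 97 and 52 counts, and its sums in the control and deletion libraries were nearly equal. Of its 2 measured markers, 0 were at least 2-fold higher and 1 was lower in the deletion library than in the control. Dermis markers were likewise lowest in the dTF library and highest in the control. The part of these cell types in the result was not tested.

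Notum encodes a secreted enzyme that strips the lipid from Wnt ligands. It had 15, 8 and 2 counts in the control, deletion and dTF libraries, or 4.20, 2.83 and 0.715 CPM. The dTF library was lowest, and the Poisson intervals of the 3 levels overlapped. The ratio of dTF to control was 0.170 (0.0189 to 0.732), and under stroma scaling the log2 difference from the control was -0.29 in place of -1.83. Sp5, a zinc-finger repressor that competes at Wnt-driven promoters and whose 2 TCF/LEF matches are printed above, had 10, 10 and 7 counts, or 2.80, 3.54 and 2.50 CPM. All its intervals overlapped, and no difference was detectable at this depth: the interval of the ratio of deletion to control ran from 0.472 to 3.39. How the counting used strand is not stated. The annotation places Gm11670 across an exon of Axin2 and Notumos and Myadml2os across exons of Notum on the other strand, and each of those was listed at 0 in the 3 libraries.

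Setting a member against its close relatives in the same library gives a share that no scaling can move. The sets were chosen after the values were seen. Rnf43 made up 14.4% of Rnf43 plus Znrf3 counts in the control (exact binomial 95% interval 7.92% to 23.4%), 38.9% in the deletion library (30.5% to 47.8%) and 58.3% in the dTF library (50.9% to 65.4%), and these 3 intervals did not overlap. Axin2 made up 35.6% of Axin2 plus Axin1, its constitutive relative, in the control (30.6% to 40.9%), 44.1% in the deletion library (38.7% to 49.7%) and 17.4% in the dTF library (13.4% to 21.9%). The dTF library thus had the smallest Axin2 share of the 3 libraries, while control and deletion overlapped. Counts of Axin1 were 226, 181 and 271.

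Nkd1 held 66.2%, 57.6% and 56.9% of Nkd1 plus Nkd2 counts in the control, deletion and dTF libraries, with overlapping intervals, while both genes had their lowest counts in the dTF library. Lgr5 held 7.31%, 12.9% and 6.40% of Lgr4, Lgr5 and Lgr6 counts, also with overlapping intervals, and Lgr4 was the most counted of these R-spondin receptors in each library, at 199, 139 and 114 counts. Kremen2, the relative of Kremen1, had 3 counts in the control, 74 in the deletion library and 65 in the dTF library. Kremen1 therefore held 99.4% of the pair in the control (98.4% to 99.9%), 85.6% in the deletion library (82.3% to 88.5%) and 92.1% in the dTF library (90.1% to 93.9%).

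**Figure D5:**
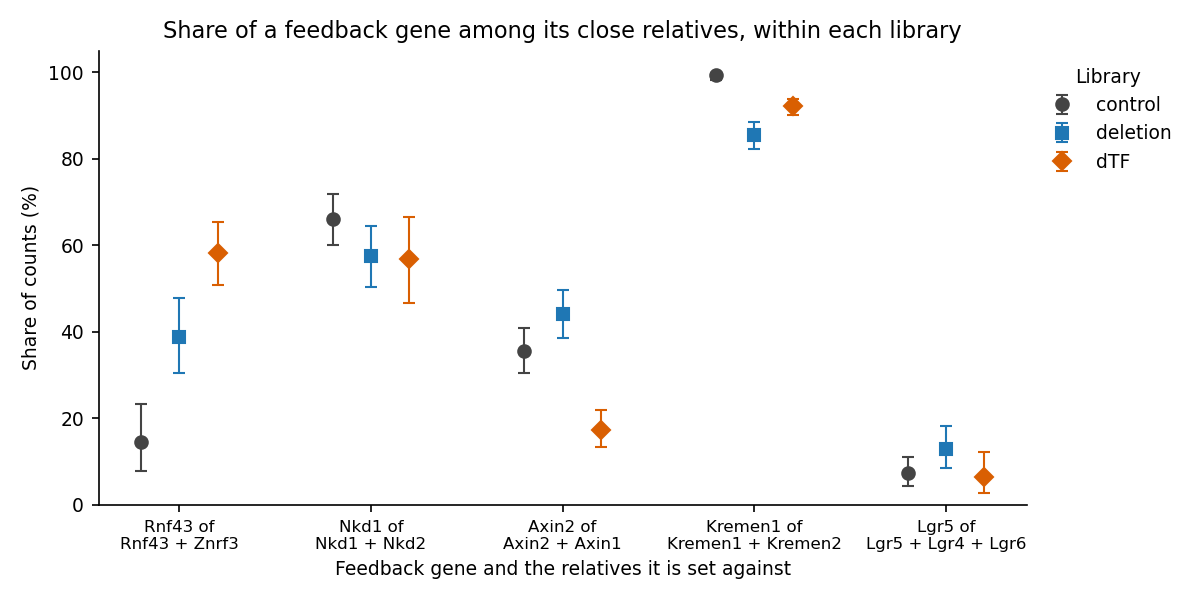
Share (%) of a feedback gene in the summed counts of that gene and its close relatives, for the control (circles), deletion (squares) and dTF (diamonds) libraries; points are single libraries and bars are exact binomial 95% intervals of counting error. Rnf43 goes from 14.4% to 58.3% of the Rnf43 and Znrf3 counts, and Axin2 from 35.6% in the control to 17.4% in the dTF library.

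Elsewhere in the pathway, the secreted antagonists had the lowest median of the 5 pathway lists in both comparisons with the control. Of 9 measured, 5 were at least 2-fold lower and 1 higher in the deletion library than in the control (median -1.36, against 0.06 over all genes), and 9 of 9 were at least 2-fold lower in the dTF library (median -2.44, and -0.47 under stroma scaling). Wif1, which binds Wnt ligands, had 544, 123 and 81 counts in the control, deletion and dTF libraries, Dkk1 had 154, 35 and 4, and Frzb, a decoy receptor, had 139, 35 and 1. Sfrp4 (mean 5.28 CPM) stood at 12.3, 3.18 and 0.357 CPM in the control, deletion and dTF libraries. It reached the floor only through the control, so its calls as lower in both comparisons are partly set by the floor. Of all measured genes 6.78% and 20.9% were at least 2-fold lower in these comparisons. Of the 8 measured feedback members 0 and 2 were lower. The difference between the members and the antagonists was not tested. Osteoblast markers were lower in the same libraries, 12 of 12 in the deletion library and 11 of 12 in the dTF library, and their part in the antagonists' counts was not tested.

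Of 10 nuclear factors, 1 was at least 2-fold higher and 1 lower in the deletion library than in the control. Of all measured genes 9.66% were higher and 6.78% lower there. In the dTF library 0 were higher and 5 lower (median -0.88, and 1.28 under stroma scaling), against 19.5% and 20.9% of all measured genes. Tcf7, a TCF/LEF factor that is itself a Wnt target, had 438, 89 and 18 counts in the control, deletion and dTF libraries and was the largest difference in the list against the control. Lef1, its relative, was 2.12-fold higher in the deletion library (1.41 to 3.22). Pygo1, a co-factor of beta-catenin, was 8.04-fold lower in the dTF library than in the control under TMM scaling (4.72 to 14.7). Its fold under stroma scaling is not given.

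For this list and the 2 after it, the shares of all measured genes were again 9.66% higher and 6.78% lower in the deletion library. In the dTF library they were 19.5% and 20.9%. Among 18 measured receptors and R-spondins, 3 were at least 2-fold higher and 1 lower in the deletion library (median -0.24). In the dTF library 2 were higher and 9 lower (median -1.02, and 1.17 under stroma scaling). The higher ones were Kremen2 and the Frizzled receptors Fzd10 (5.89-fold, 4.13 to 8.60) and Fzd6 (3.49-fold, 2.57 to 4.80) in the deletion library, and Kremen2 and Fzd6 in the dTF library. Kremen2 stood at 0.839 CPM in the control against 26.2 and 23.2 CPM in the deletion and dTF libraries. It reached the floor only through the Cre-carrying libraries, so its calls as higher are partly set by the floor. Fzd4 had 88, 66 and 4 counts and Rspo2, a ligand of Lgr5, 35, 24 and 1. The destruction complex and Dishevelled list showed 0 of 16 past 2-fold in the deletion library (median -0.15). In the dTF library 3 were higher and 3 lower (median 0.51, and 2.71 under stroma scaling), close to the shares of all measured genes. Apc2, a relative of the scaffold Apc, was 8.09-fold lower in the dTF library than in the control under TMM scaling (3.51 to 22.9). Stroma scaling moved the median log2 difference of all measured genes by 2.16 in that comparison, so the size of this fold depends on the scaling. Of 11 other Wnt targets, 1 was higher and 0 lower in the deletion library, and 3 higher and 4 lower in the dTF library (median -0.05, and 2.14 under stroma scaling). Ccnd1, a cyclin of cell cycle entry, had 885, 389 and 41 counts in the control, deletion and dTF libraries. Fosl1, an AP-1 subunit, had 1, 0 and 93 counts. It reached the floor only through the dTF library, at 33.2 CPM, so its place among the 3 higher targets is partly set by the floor.

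Likeness of pattern was measured as the Euclidean distance between log2 CPM values centred over the 3 libraries, among 7580 genes with a mean of at least 20 CPM. With 3 points per gene, the distances are a description only. Nearest to Rnf43 were Arhgef5 (distance 0.07), Tjp3 (0.11) and Cpeb2 (0.15), and only 8 genes lay within 0.25 of it. Arhgef5 had 70, 248 and 493 counts in the control, deletion and dTF libraries. Nearest to Apcdd1, with 6 genes within 0.25, were Slc7a8 (0.02), Fam83d (0.12) and Mvk (0.13). Axin2 had 96 genes within 0.25, led by Tecpr1, Ppt1 and Dbnl, and Lgr5 had 38, led by Sh3kbp1, Thop1 and Fcrls. The patterns of Znrf3 and Kremen1 were the most common, with 730 and 808 genes within 0.25 and Cyfip1 and Hmg20b as the nearest.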

How the data were processed

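The deposited values are raw read counts per gene symbol, 1 table of 43280 rows per library with the columns Gene and Count, not normalised, per the file headers. The genome was mm10, per the submitters' processing notes. Which aligner, read counter and annotation were used, and whether strand was used, is not given in the sources used here. RNA was labelled polyA, from primary cells. Libraries held 3634819 (control), 2678457 (deletion) and 2905264 (dTF) counts, so 3 counts, the limit taken for a count of 0, equal 0.839, 1.06 and 1.07 scaled CPM.

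Counts were scaled with TMM factors (edgeR 4.0.16, R 4.3.3); log2 CPM took a prior count of 2. A gene was taken as measured from a mean of 5 CPM and as called from a log2 difference of 1 in size. Ratios are of scaled counts without a prior count, with exact conditional 95% intervals (SciPy 1.17.1). Intervals cover counting error only, because 1 library per group holds no spread between replicates. Without molecular identifiers reads can be copies of 1 molecule, so the intervals can be too narrow even for that error. With 1 library per group no test or p-value was computed. Coordinates and exon lengths come from GENCODE vM21 (GRCm38, the sequence of mm10). Adgre1 was found as Emr1. The calls were tested on simulated data. The simulation changed a small set of genes, used Poisson error only and scaled by library totals in place of TMM. It held no difference in cell makeup, so it could not address how scaling moves the dTF library.

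The members and lists were chosen with earlier results of these data known. Named genes were the 10 members, Ctnnb1 and Twist2, and from each pathway list and comparison up to 3 genes past 2-fold whose interval excluded 1, or the 2 most abundant; 3 genes of most alike pattern were taken per measured member. Other genes were named after their values were seen. Alternatives were 5 other scalings (library totals, DESeq2 1.42.0 size factors, totals that leave out the top 20 genes of every library, stroma scaling, TMM without genes of other tissues), other prior counts and floors, and other size rules.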

Additional observations from a re-analysis of the deposited data

How the results depend on the processing

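Directions of the 10 members were kept under library totals, totals without the 20 most abundant genes, TMM without genes of other tissues, and prior counts of 0.5 and 10. With DESeq2 size factors 1 changed sign, Znrf3 in the dTF library against the deletion library (-0.02 to 0.04). Stroma scaling changed the sign of 1 member in the deletion library against the control (Kremen1), of 6 in the dTF library against the control and of 7 in the dTF library against the deletion library, because it rescales that library as a whole. Library totals moved the median of all measured genes by -0.13 in the dTF library against the deletion library, and totals without the 20 most abundant genes moved it by -0.35 against the control and -0.29 against the deletion library. Among differences past the size rule, the reversed log2 differences of the dTF library from the control were Apcdd1 at 0.83 and Nkd1 at 0.94, and those from the deletion library were Axin2 at 1.03, Lgr5 at 0.57 and Notum at 0.29. Medians of the measured members became 1.45 and 1.34 in these comparisons.

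The number of members at least 2-fold higher in the deletion library than in the control was 1 in place of 2 with DESeq2 size factors, a prior count of 10, stroma scaling, totals without the 20 most abundant genes or a 3-fold rule; the member lost was Apcdd1 in each case. In the dTF library against the control, the 1 higher member became 2 at 1.5-fold and 6 under stroma scaling. The 2 lower members became 5 at 1.5-fold or without the 20 most abundant genes, and 0 at 3-fold or under stroma scaling. In the dTF library against the deletion library, the 1 higher member became 2 at 1.5-fold, 6 under stroma scaling, and 0 at 3-fold, with library totals, without the 20 most abundant genes or at a prior count of 10. The 3 lower members became 5 at 1.5-fold, with library totals or without the 20 most abundant genes, 1 at 3-fold and 0 under stroma scaling.

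Over all genes, 12127 at the main floor, the deletion library against the control had 2195 higher and 1602 lower at 1.5-fold. It had 692 and 382 at 3-fold, 675 and 325 at a floor of 20 CPM, and 2149 and 2293 with no floor. Higher genes numbered 1129 with DESeq2 size factors and 939 at a prior count of 10. They numbered 974 under stroma scaling and 1091 without the 20 most abundant genes. The dTF library against the control had 3791 higher and 3583 lower at 1.5-fold, and 1255 higher and 1586 lower at 3-fold. It had 1228 lower at 20 CPM, 4619 lower with no floor, and 9829 higher and 501 lower under stroma scaling. Without the 20 most abundant genes it had 1602 higher and 3395 lower. The dTF library against the deletion library had 3237 higher and 3691 lower at 1.5-fold, and 710 higher and 1516 lower at 3-fold. It had 1169 lower at 20 CPM, and 3073 higher and 4536 lower with no floor. Under stroma scaling it had 10101 higher and 419 lower, and without the 20 most abundant genes 1122 higher and 3276 lower. Library totals gave 1437 higher and 2820 lower. A prior count of 10 gave 1498 higher. No paired analysis was possible because each group holds 1 library. Leaving out a replicate could not be done for the same reason. Depth limits Sp5, Notum and Lgr5, which have at most 27 counts in a library.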
